A study of Mus musculus with 2 samples.

Results

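Phase II conjugation attaches glutathione, glucuronic acid or sulfate to drugs, steroids, bilirubin and bile acids, which makes them more water-soluble and ready for export into bile or blood. Glutathione S-transferases (GSTs) use glutathione, UDP-glucuronosyltransferases (UGTs) use UDP-glucuronic acid and sit in the endoplasmic reticulum, and cytosolic sulfotransferases (SULTs) use the sulfate donor PAPS. Hepatocytes are the main site of all of them, and hepatocytes near the central vein are known for more of the drug-metabolizing enzymes than those near the portal tract. The genes described here are those whose symbols follow the naming pattern of the GST, UGT and SULT families (Gst, class letter and number; Ugt1 to Ugt3; Sult with family, letter and number). The pattern gave 58 of the 19059 genes in the data, namely 21 GST, 16 UGT and 21 SULT genes.

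Single-cell gene expression was measured by a probe-based assay for fixed RNA (10x Genomics), in which probe pairs bind the transcripts of a gene and the bound pairs are counted per cell. The material was liver of mice on a high-fat, high-sugar diet (HF/HSD), which began at 7 weeks of age and lasted 20 weeks, with 1 library for each genotype collected at 27 weeks. AEG-1ΔMAC mice lack AEG-1 (gene symbol Mtdh) in myeloid cells, since Cre recombinase under the lysozyme promoter (LysM-Cre) removes a floxed part of the gene in macrophages and neutrophils. AEG-1fl/fl littermates carry the same floxed alleles without Cre, so that both groups share the floxed alleles, the diet and the age. Because there is 1 library per genotype, a difference between libraries has no replicate check and no test, and all intervals below are 95% intervals that cover counting error only. Whether a library pools several livers was not stated in the sources used here.

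The libraries held 2581 cells (AEG-1ΔMAC-labelled) and 3535 cells (AEG-1fl/fl-labelled) with 79589511 and 90440089 counts, and 10 cell barcodes occurred in both. Cells were assigned to a class by marker genes, none of which is a conjugation enzyme of the set: 1163 and 1266 hepatocytes, 224 and 357 endothelial cells, 135 and 239 stellate cells, 204 and 538 macrophages, and 29 and 92 cholangiocytes, the cells that line bile ducts. All 13 hepatocyte markers in the data were highest in hepatocytes in both libraries. The cells were assigned by these same markers, so this is no independent check of the classes. The targeted gene went against the labels, with 205 counts of Mtdh in macrophages (137 CPM, counts of the gene per 1000000 counts of the class) in the AEG-1ΔMAC-labelled library and 76 counts (18.8 CPM) in the AEG-1fl/fl-labelled library. In the same order of libraries, Mtdh had 61.9 and 57.9 CPM in hepatocytes and 98.0 and 98.2 CPM in endothelial cells. B cells had 151 and 68.9 CPM, and neutrophils 1 and 10 counts. Where the probe lies relative to the floxed part was not given in the sources used here. Neither its position nor an exchange of labels was tested, so every direction below is one between labelled libraries and not between genotypes. Hepatocyte values differed little in depth, with a median of 30475 and 27487 counts per hepatocyte. CPM depends on how many probes a gene has, so levels are compared within a gene and not between genes.

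Of the 58 genes, 41 reached 50 summed counts in hepatocytes and 17 did not. No count at all was found in any cell for 7 of them. A hepatocyte library total of 63278461 (AEG-1ΔMAC-labelled) or 70201485 counts (AEG-1fl/fl-labelled) and a count of 0 allow up to 0.0474 or 0.0427 CPM. The whole set took 0.779% and 0.716% of hepatocyte counts, of which GSTs took 0.585% and 0.530%, UGTs 0.150% and 0.147%, and SULTs 0.0443% and 0.0393%.

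Promoters of 51 of the 58 genes were found in the RefSeq promoter table (GRCm38.p6), each from 250 bases before to 50 bases from the transcript start. Shown here are the 3 genes that were at least 2-fold higher in hepatocytes near the central vein than near the portal vein in both libraries, the gene that fell most steeply toward the central vein, and the gene that differed most between libraries, because the results turn on them. Capitals mark a match to any of 5 motifs searched on both strands, and Sult2a8 holds the only match among the 5 windows, to CTTTGAT on the reverse strand. All are 5′ to 3′ on the minus strand.
Gstm2, chr3:107986371-107986670: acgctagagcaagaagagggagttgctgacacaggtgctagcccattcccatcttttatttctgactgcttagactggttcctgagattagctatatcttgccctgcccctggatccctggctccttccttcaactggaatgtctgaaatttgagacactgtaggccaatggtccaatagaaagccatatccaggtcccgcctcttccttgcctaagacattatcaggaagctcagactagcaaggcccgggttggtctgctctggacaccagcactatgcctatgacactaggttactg
Gstm3, chr3:107969125-107969424: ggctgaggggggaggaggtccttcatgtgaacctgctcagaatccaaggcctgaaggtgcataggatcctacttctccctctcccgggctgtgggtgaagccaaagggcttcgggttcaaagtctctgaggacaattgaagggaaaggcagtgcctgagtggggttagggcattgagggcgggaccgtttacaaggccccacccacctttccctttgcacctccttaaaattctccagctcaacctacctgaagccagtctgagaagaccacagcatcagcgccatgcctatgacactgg
Sult2a8, chr7:14446538-14446837: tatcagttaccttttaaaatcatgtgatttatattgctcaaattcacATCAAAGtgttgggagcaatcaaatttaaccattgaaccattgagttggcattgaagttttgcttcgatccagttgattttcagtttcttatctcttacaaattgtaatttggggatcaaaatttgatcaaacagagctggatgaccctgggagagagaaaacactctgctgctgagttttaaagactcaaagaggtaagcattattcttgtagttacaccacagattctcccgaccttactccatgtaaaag
Sult5a1, chr8:123158231-123158530: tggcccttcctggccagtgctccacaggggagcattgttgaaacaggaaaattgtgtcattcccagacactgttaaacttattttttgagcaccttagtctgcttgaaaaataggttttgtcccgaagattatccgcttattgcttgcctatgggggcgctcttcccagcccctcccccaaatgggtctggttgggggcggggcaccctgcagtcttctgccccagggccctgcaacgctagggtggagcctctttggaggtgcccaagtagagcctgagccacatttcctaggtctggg
Sult1e1, chr5:87591562-87591861: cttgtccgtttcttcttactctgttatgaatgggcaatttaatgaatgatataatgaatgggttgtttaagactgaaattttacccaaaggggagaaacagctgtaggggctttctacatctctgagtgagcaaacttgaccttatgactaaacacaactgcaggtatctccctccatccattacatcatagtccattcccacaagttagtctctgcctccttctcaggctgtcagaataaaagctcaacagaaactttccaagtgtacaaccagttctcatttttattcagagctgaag

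The motifs were TGACNNNGC (core of the antioxidant response element, bound by NRF2), CTTTGAT (bound by TCF and LEF factors of the Wnt pathway), TTCNNNGAA (bound by STAT5), GCGTG (core of the xenobiotic response element, bound by the aryl hydrocarbon receptor) and CAAAGTCCA (bound by HNF4). CTTTGAT was in 3.73% of all 32851 promoters in the table and in 1 of the 62 promoters of the conjugation enzymes, the one of Sult2a8 printed above. For a gene with several starts, the window farthest upstream was printed. The other Sult2a8 window, chr7:14438502-14438801, had no match to any of the motifs. TGACNNNGC was in 12.4% of all promoters and in 3 of the 62, TTCNNNGAA in 8.30% and 2 of the 62, GCGTG in 32.4% and 11 of the 62, and CAAAGTCCA in 0.475% and 1 of the 62. A match is a run of letters and not a bound site, and a window without a match says only that these letters are absent from these 300 bases.

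To ask where in the lobule each enzyme is expressed, hepatocytes of each library were ordered by a score of pericentral and periportal marker genes that holds no conjugation enzyme, and divided into a periportal, a middle and a pericentral zone of equal cell number (387 to 388 and 422 cells). The pericentral markers summed to 2477, 7018 and 17305 CPM over these zones in the AEG-1ΔMAC-labelled library and to 1939, 4922 and 11725 CPM in the AEG-1fl/fl-labelled library. In the same order, the periportal markers summed to 17601, 10281 and 4528 CPM and to 16936, 8065 and 3704 CPM. Cells were ranked within each library, so the zones were not matched between libraries, which limits every library ratio within a zone. Of the 58 genes, 39 had at least 50 counts over the outer zones in each library. With a limit of 2-fold in the same direction in both libraries, 3 were pericentral, against 2.26% of all 10896 genes counted, and 4 were periportal, against 1.32% of all genes. The other 32 stayed within the limit in at least 1 library. The median of the mean log2 ratio (pericentral over periportal) was 0.14 over the 39 enzymes and 0.16 over all genes.

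Among GSTs, the 2 genes past the limit belong to the mu class. Gstm2 had 104, 268 and 649 CPM from the periportal to the pericentral zone in the AEG-1ΔMAC-labelled library. In the AEG-1fl/fl-labelled library it had 74.9, 167 and 447 CPM. The rise was continuous across zones in both libraries, and the log2 ratios of 2.64 (interval 2.58 to 2.70) and 2.58 (2.51 to 2.65) overlapped. Gstm3, which lies next to Gstm2 in the mu-class cluster on chromosome 3 with no other mu-class gene between them, had 312, 649 and 1093 CPM and 312, 668 and 1043 CPM. Its log2 ratios were 1.81 (1.77 to 1.85) and 1.74 (1.71 to 1.78). Gstm6, the neighbour on the other side of Gstm3, was graded in the same direction, with 64.4, 98.9 and 166 CPM and 59.8, 81.4 and 111 CPM, and passed the limit in the AEG-1ΔMAC-labelled library (1.37) but not in the other (0.90). The cluster was not uniform: Gstm7 had log2 ratios of 0.06 and -0.33, and Gstm5 of -0.27 and 0.00. The remaining mu genes, Gstm1 and Gstm4, lay between these at 0.40 and 0.63, and at 0.43 and 0.84.

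No GST of another class passed the limit in both libraries. Gstp1, a pi-class enzyme, was slightly higher on the periportal side at -0.47 and -0.22, as was Gsto1, an omega-class enzyme that reduces dehydroascorbate, at -0.60 and -0.42. Gstt2 of the theta class was pericentral-leaning at 0.81 and 0.71. Gsta2, an alpha-class enzyme, had 9.99, 7.03 and 4.22 CPM in the AEG-1ΔMAC-labelled library (log2 ratio -1.24, -1.62 to -0.87). In the AEG-1fl/fl-labelled library it had 5.37, 3.75 and 4.54 CPM, with a log2 ratio of -0.24 (-0.62 to 0.13) whose interval includes 0. Its slope therefore rested on the AEG-1ΔMAC-labelled library.

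**Figure D1:**
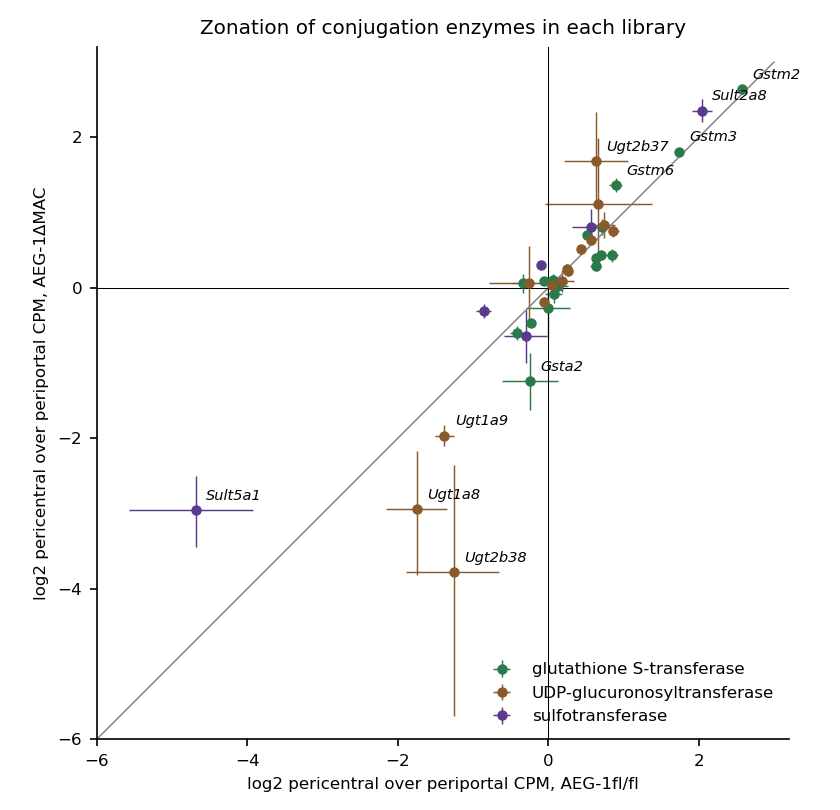
Each point is 1 of the 39 conjugation enzymes counted in both libraries, with the log2 ratio of pericentral over periportal CPM in the AEG-1fl/fl-labelled library on the x axis and in the AEG-1ΔMAC-labelled library on the y axis, error bars as 95% counting intervals and a line of equality. Gstm2, Sult2a8 and Gstm3 lie at the upper right and Sult5a1, Ugt2b38, Ugt1a8 and Ugt1a9 at the lower left. Of the 39, 33 have the same sign in both, against 8725 of all 10896 genes counted.

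UGTs held the largest group of periportal genes. Ugt1a9 had 111, 48.3 and 28.3 CPM from periportal to pericentral in the AEG-1ΔMAC-labelled library and 84.6, 39.3 and 32.5 CPM in the AEG-1fl/fl-labelled library, with log2 ratios of -1.96 (-2.10 to -1.83) and -1.38 (-1.5 to -1.26). Ugt1a8 had 6.08, 2.36 and 0.792 CPM, and 9.94, 3.44 and 2.96 CPM. These genes start beside each other on chromosome 1 (Ugt1a9 at 88070800, Ugt1a8 at 88087813, GRCm38) and share their downstream exons with the rest of the Ugt1a locus. Ugt1a1, the enzyme of bilirubin glucuronidation at the far end of the locus, had the opposite gradient, with 18.4, 22.0 and 32.9 CPM and 24.3, 27.4 and 40.6 CPM (log2 ratios 0.83 and 0.74). In the annotation, 62.0% of the 50-base stretches of Ugt1a9, 59.7% of those of Ugt1a8 and 58.2% of those of Ugt1a1 also occur in other genes of the set. Where the probes lie was not known here, so the part of each Ugt1a count that could come from a shared exon was not tested. The opposite gradients were present in both libraries.

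The Ugt2b genes on chromosome 5 leaned the other way. The median of the mean log2 ratio over these 7 genes was 0.47, and each of the 7 had the same sign in both libraries. Ugt2b35 had 90.5, 120 and 153 CPM, and 82.9, 107 and 151 CPM, a log2 ratio of 0.76 and 0.87. Ugt2b38 was the exception past the limit, with 2.90, 0.923 and 0.211 CPM in the AEG-1ΔMAC-labelled library and 3.43, 1.67 and 1.44 CPM in the AEG-1fl/fl-labelled library. Its totals were 94 and 163 hepatocyte counts, and its intervals were wide (-3.78, -5.69 to -2.36, and -1.26, -1.89 to -0.66). Ugt2b37 had a log2 ratio of 1.68 (1.06 to 2.34) in the AEG-1ΔMAC-labelled library and 0.63 (0.21 to 1.07) in the other. Ugt2b38 shares 37.4% and Ugt2b37 18.3% of its 50-base stretches with other genes of the set, mostly with Ugt2b5, so that both are uncertain as to which gene was counted. Ugt2b5 itself was nearly flat at -0.19 and -0.06.

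Of the SULTs, 1 passed the limit in each direction. Sult2a8, a sulfotransferase of bile acids, had 17.1, 57.3 and 87.4 CPM in the AEG-1ΔMAC-labelled library and 19.5, 48.9 and 80.2 CPM in the AEG-1fl/fl-labelled library, a log2 ratio of 2.36 (2.20 to 2.51) and 2.04 (1.90 to 2.18). Sult5a1 had 17.2, 7.28 and 2.22 CPM and 16.7, 3.34 and 0.649 CPM, and was the most periportal of the 39 counted enzymes at -2.96 (-3.45 to -2.50) and -4.69 (-5.57 to -3.93). In all hepatocytes Sult5a1 had 9.66 and 8.01 CPM, a log2 ratio of 0.27 (0.10 to 0.44) between the libraries, but by zone that ratio was 0.04 (-0.15 to 0.23) in the periportal, 1.12 (0.69 to 1.57) in the middle and 1.77 (0.87 to 2.76) in the pericentral zone, the last from 42 and 14 counts. The summed periportal markers were also higher in the AEG-1ΔMAC-labelled library in the middle (10281 and 8065 CPM) and pericentral zone (4528 and 3704 CPM). Whether the Sult5a1 ratios by zone go beyond such a shift was not tested. Sult1d1, an enzyme that sulfates amines, was modestly periportal at -0.31 and -0.86. Sult1a1, the main phenol sulfotransferase, was lowest in the middle zone in both libraries, with 245, 187 and 301 CPM and 277, 184 and 260 CPM. Sult1e1, the estrogen sulfotransferase, was below the count minimum for this comparison in the AEG-1fl/fl-labelled library. It had 31.7, 16.9 and 5.44 CPM from periportal to pericentral in the AEG-1ΔMAC-labelled library, and 35, 11 and 5 counts in the other, so that the periportal zone was highest in both.

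**Figure D2:**
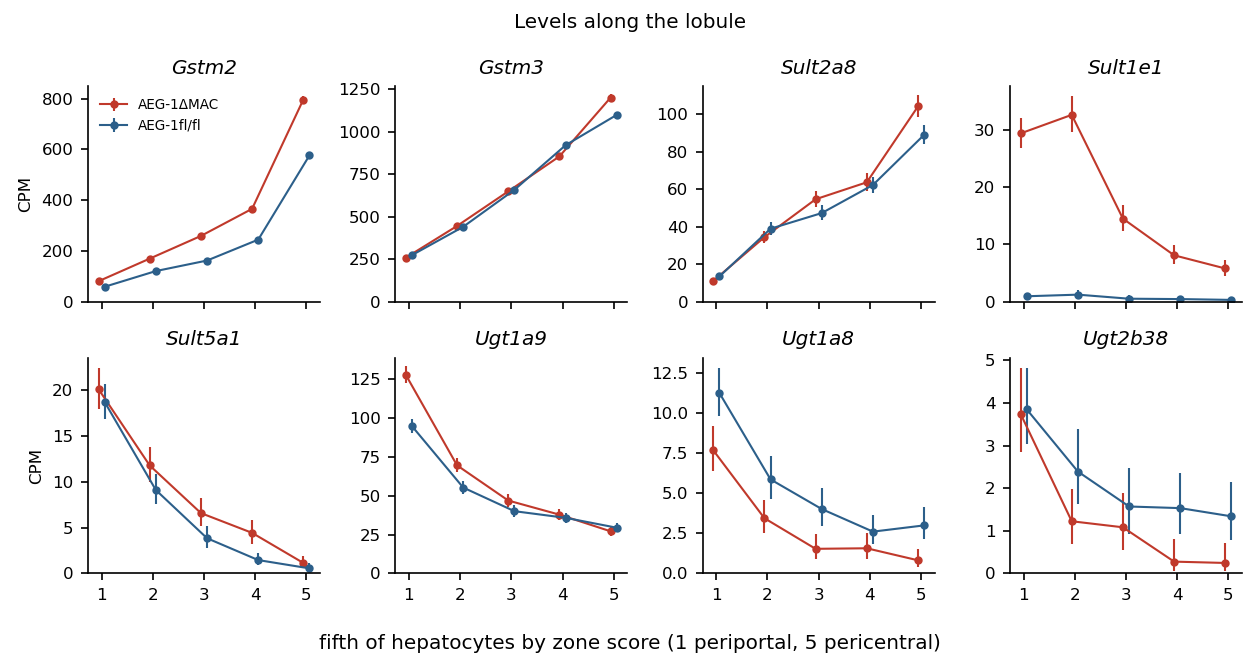
CPM of 8 genes over 5 equal groups of hepatocytes ordered by the zone score, from 1 (periportal) to 5 (pericentral), with Poisson 95% intervals, in the AEG-1ΔMAC-labelled (red) and AEG-1fl/fl-labelled (blue) library. Gstm2, Gstm3 and Sult2a8 rise at every step in both, Sult5a1 and Ugt1a9 fall at every step in both, and Sult1e1 lies near 0 in the AEG-1fl/fl-labelled library.

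The gradients were close between libraries for most genes. Of the 39, 33 had the same sign in both, as had 8725 of all 10896 genes counted, so the same sign was common among all genes. The median absolute difference of the log2 ratios of the 39 was 0.24. Across these 39 genes the correlation of the log2 ratios was r = 0.87, a description over genes, which share cells, depth and the zone score and are not independent.

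To ask how the libraries differed, counts of all hepatocytes were summed per library. Of the 41 enzymes counted, 2 were at least 2-fold higher in the AEG-1ΔMAC-labelled library, against 1.2% of all 12236 genes counted, and 0 were at least 2-fold lower, against 2.94% of all genes. The other 39 stayed within 2-fold. Their log2 ratio (AEG-1ΔMAC-labelled over AEG-1fl/fl-labelled) had a median of 0.10 over the 41 enzymes and -0.05 over all genes. The counting interval lay above 0 for 23 and below 0 for 12 of the 41. Over all 12236 genes counted it lay above 0 for 2870 and below 0 for 4505. The family medians were 0.16 for 18 GSTs, -0.01 for 15 UGTs and 0.33 for 8 SULTs. The depth of these sums makes even small ratios larger than counting error, and without replicates they cannot be set against the spread between animals.

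Sult1e1, at chr5:87575969-87591594 on the minus strand, stood apart from all other members. It had 1218 counts (19.2 CPM, 18.2 to 20.4) in hepatocytes of the AEG-1ΔMAC-labelled library and 51 counts (0.726 CPM, 0.541 to 0.955) in those of the AEG-1fl/fl-labelled library. The log2 ratio was 4.73 (4.32 to 5.16), which is 26.5-fold. Its counts were spread over many cells: 381 of 1163 hepatocytes (32.8%) had at least 1 count in the former and 33 of 1266 (2.61%) in the latter. After each hepatocyte was thinned to 5000 counts, with no hepatocyte left out, the shares were 6.53% and 0.395%. The 10% of hepatocytes with the most Sult1e1 counts held 69.4% of its counts in the AEG-1ΔMAC-labelled library, and the highest cell held 37. Macrophages had a Sult1e1 count in 5.39% and 0% of cells at median depths of 5386 and 5532 counts.

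The difference in Sult1e1 was present in each zone. The log2 ratio between libraries was 4.71 (4.22 to 5.24) in the periportal zone, from 786 and 35 counts. It was 4.92 (4.06 to 5.94) in the middle zone and 4.55 (3.28 to 6.21) in the pericentral zone, so that the intervals of all zones overlapped. Genes directly beside Sult1e1 on chromosome 5 moved far less: Sult1d1 had 96.9 and 73.2 CPM, a log2 ratio of 0.40 (0.35 to 0.46), and Sult1b1, which follows it, had 13.2 and 10.1 CPM, a log2 ratio of 0.38 (0.24 to 0.53). No 50-base stretch of Sult1e1, Sult1d1 or Sult1b1 is shared with another member.

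Sult1e1 is known in mice for regulation by sex hormones and metabolic state, so lists of sex-biased liver genes were set beside it. Of the female-biased list, 6 of 11 genes in the data were counted, with a median log2 ratio of 1.37, 3 at least 2-fold higher in the AEG-1ΔMAC-labelled library and 1 lower. Cyp2b9 had 15.1 and 1.04 CPM (log2 ratio 3.86), Acot3 4.08 and 27.8 CPM (-2.77), and Cyp17a1 26.2 and 24.0 CPM (0.12), so the list did not move as one. Of the male-biased list, 12 were counted with a median of -0.23, 1 higher and 2 lower. Hepatocytes of both libraries carried RNA of Y-linked genes, 131 and 140 CPM summed over 4 genes. The part of sex in the Sult1e1 result was not tested.

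The second gene past the limit, Sult2a7, rested on few counts, with 71 and 39 in all hepatocytes (1.12 and 0.556 CPM). Its log2 ratio was 1.01 (0.43 to 1.62), and it was named here because it passed the limit and not by the naming rule, which asks for 200 counts. The call was lost when cells rather than counts were averaged (0.84) and under 4 other alternatives. It lies beside Sult2a8 on chromosome 7, whose log2 ratio was 0.12 (0.05 to 0.19). Sult2a7 was at 5, 24 and 42 counts from periportal to pericentral in the AEG-1ΔMAC-labelled library and at 8, 12 and 19 in the other. Sult2a1 to Sult2a6, the other genes of this cluster and known as female-predominant in mouse liver, had no count in any hepatocyte of either library.

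**Figure D3:**
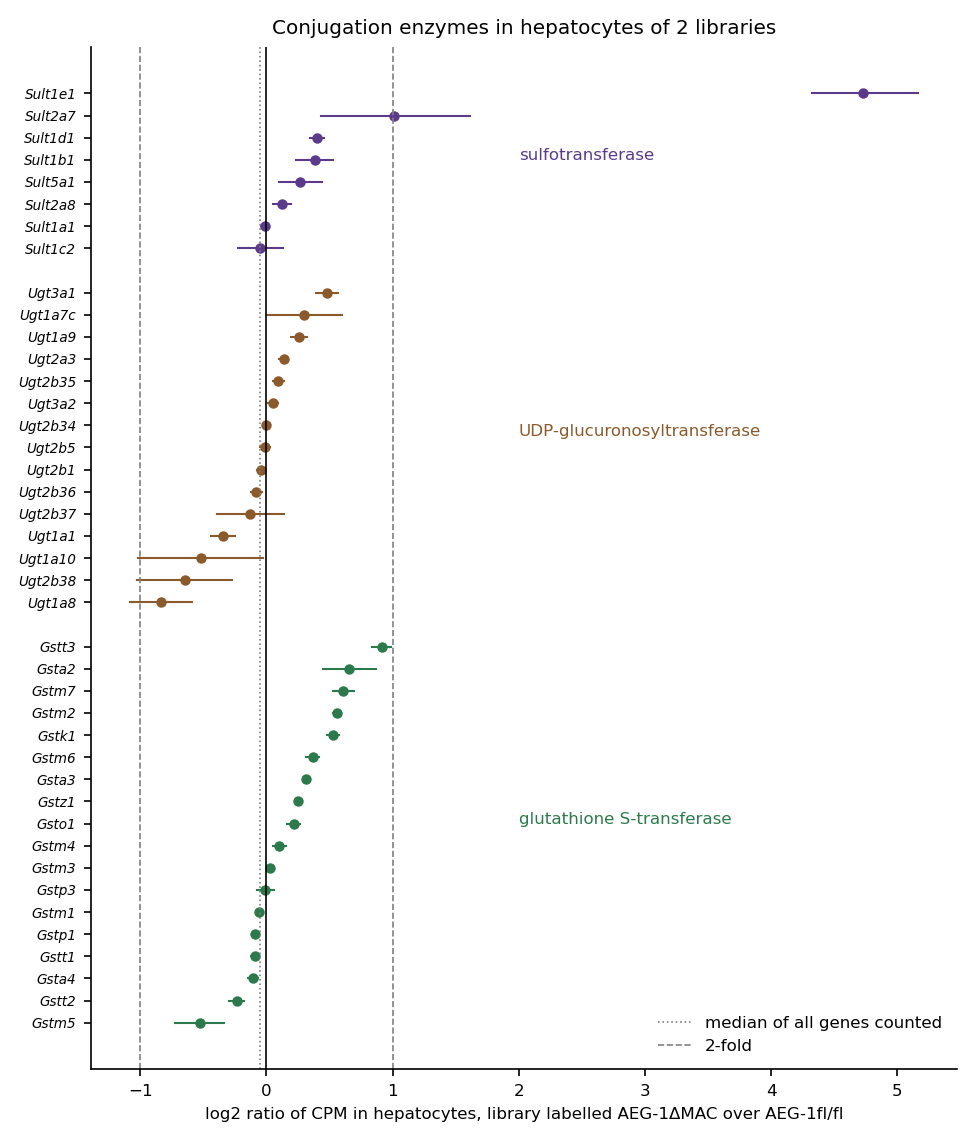
Log2 ratio of CPM in hepatocytes, AEG-1ΔMAC-labelled over AEG-1fl/fl-labelled library, for the 41 conjugation enzymes with at least 50 summed counts, by family, with 95% counting intervals (1 library per genotype, no test). Sult1e1 is at 4.73 and Sult2a7 at 1.01, and the other 39 lie between the dashed lines at 2-fold.

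Among GSTs, all 18 counted genes stayed within 2-fold. Gstt3, a theta-class enzyme, came closest with 65.6 CPM in the AEG-1ΔMAC-labelled and 34.9 CPM in the AEG-1fl/fl-labelled library, a log2 ratio of 0.91 (0.84 to 0.99). Its ratio was similar in the periportal, middle and pericentral zone, at 0.96, 0.93 and 0.85. Its transcript shares 20.4% of 50-base stretches with a gene outside the set. Gsta2 (7.35 and 4.66 CPM, 0.66), Gstm7 (44.2 and 29.0 CPM, 0.61), Gstm2 (318 and 215 CPM, 0.56) and Gstk1, the kappa-class enzyme of mitochondria and peroxisomes (137 and 95.1 CPM, 0.53), followed. Gsta2 was not even over the lobule, with 0.90 (0.60 to 1.19) in the periportal and -0.10 (-0.55 to 0.34) in the pericentral zone, and 46.8% of its 50-base stretches occur in genes outside the set. Gstm5 (5.50 and 7.93 CPM, -0.53) and Gstt2 (63.8 and 75.1 CPM, -0.24) were the lowest. Gstm3, the neighbour of Gstm2, was nearly level with 650 and 637 CPM (0.03), as were Gstm1 (977 and 1019 CPM, -0.06) and Gstp1 (554 and 590 CPM, -0.09). Gstp1 shares 51.0% of its 50-base stretches with Gstp2, which had 12 and 24 counts.

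Among UGTs, Ugt1a8 was the lowest with 212 counts (3.35 CPM) in the AEG-1ΔMAC-labelled and 419 counts (5.97 CPM) in the AEG-1fl/fl-labelled library, a log2 ratio of -0.83 (-1.08 to -0.59). In the pericentral zone alone the ratio was -1.91 (-2.82 to -1.08), from 15 and 64 counts. Ugt2b38 (1.49 and 2.32 CPM, -0.64), Ugt1a1 (23.8 and 30.2 CPM, -0.34) and Ugt2b37 (3.38 and 3.69 CPM, -0.13) were also below 0, the last with an interval from -0.39 to 0.14 that includes 0. The ratio of Ugt2b37 changed sign with zone, from -1.27 (-1.91 to -0.66) in the periportal to 0.61 (0.16 to 1.06) in the middle zone, from 31 and 87 and from 107 and 71 counts. Ugt1a9 was at 66.8 and 55.8 CPM (0.26). The abundant Ugt2b genes were level: Ugt2b34 had 311 and 312 CPM, and Ugt2b5, Ugt2b1 and Ugt2b36 had log2 ratios between -0.08 and -0.01.

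Enzymes that supply or follow conjugation were read from lists of related genes. In the list of 12 genes for cofactor synthesis, the median log2 ratio was 0.21, with 0 at least 2-fold higher and 1 lower, the cystine transporter Slc7a11, at 0.253 and 0.556 CPM. Gclc, which makes the glutathione precursor, had 408 and 256 CPM (0.67), Cbs, which feeds cysteine synthesis, 465 and 281 CPM (0.73), and Ugdh, which makes UDP-glucuronic acid, 335 and 231 CPM (0.54). For sulfate activation, Papss2 had 114 and 93.0 CPM (0.29) and Papss1 21.4 and 19.4 CPM (0.14). The NRF2 target list had a median of 0.16 over 10 genes, 0 of them 2-fold higher and 1 lower, which is again Slc7a11. Of these genes, 8 were above 0, with the counting interval above 0 for 7 and below 0 for 1. Over all 12236 genes counted, the interval lay above 0 for 2870 and below 0 for 4505. Gclc, given above, is also on this list. Nqo1, a textbook NRF2 target, had 17.1 and 15.6 CPM.

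Other conjugating enzymes had a median of -0.05 over 13 counted genes, with 1 at least 2-fold higher and 0 lower. That gene was Gnmt, glycine N-methyltransferase, with 1826 and 848 CPM (1.11, 1.09 to 1.12). As its name says, it methylates glycine, so its call does not concern the conjugation of drugs, steroids, bilirubin or bile acids. Of the 8 counted genes of deconjugation and the mercapturate pathway (median -0.30), 0 were higher and 2 lower. Nat8, which acetylates cysteine conjugates to mercapturates, had 7.85 and 25.6 CPM (-1.70, -1.85 to -1.56). Dpep1 had 0.300 and 0.613 CPM (-1.03, -1.89 to -0.22), from only 19 and 43 counts. Of the 9 transporters of conjugates (median -0.12), 0 were higher and 1 lower, Slco1a1, an uptake carrier of organic anions, with 516 and 3510 counts (-2.62, -2.75 to -2.48). Slco1a1 is also on the male-biased list.

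The regulator list had a median of -0.11 over 14 counted genes, with 1 at least 2-fold higher and 0 lower. The gene was Bcl6, a transcriptional repressor, with 33.0 and 8.55 CPM (1.95, 1.82 to 2.08). Nfe2l2, which encodes NRF2, had 175 and 170 CPM, and Esr1, the estrogen receptor, had 15.6 and 24.6 CPM (-0.66). Along the lobule, Ahr (log2 ratio 2.08 and 2.09) and Nr1i3, the receptor CAR (1.62 and 1.67), were pericentral in both libraries, while Esr1 was periportal (-2.42 and -2.07). The exporter Abcc4 (3.12 and 2.95) and the carriers Slco1a1 (3.64 and 2.69) and Slco1b2 (1.5 and 1.33) were pericentral, and Nnmt, nicotinamide N-methyltransferase, was periportal (-1.34 and -2.83).

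To ask which enzymes are found outside hepatocytes, each nonparenchymal class was compared with hepatocytes of the same library. Hepatocyte transcripts were counted in every class: the 13 hepatocyte markers reached 42.2% and 32.8% of their hepatocyte level in endothelial cells, 42.0% and 27.0% in stellate cells, 27.8% and 17.7% in macrophages and 35.2% and 32.7% in cholangiocytes. Whether these counts came from free RNA, from droplets that also held hepatocyte material or from the cells themselves was not tested, and a conjugation enzyme at such a ratio cannot be told apart from them. Of 36 enzymes counted in endothelial cells, 0 were at least 2-fold higher than in hepatocytes in both libraries, against 38.7% of all genes counted. The count was 0 of 37 in stellate cells (33.8% of all genes), 0 of 36 in macrophages (35.3%) and 1 of 34 in cholangiocytes (39%). Over the enzymes with at least 10 counts in the class in both libraries, the median ratio to hepatocytes was 0.559 and 0.457 in endothelial cells (30 genes), 0.591 and 0.371 in stellate cells (29 genes), 0.369 and 0.252 in macrophages (28 genes) and 0.405 and 0.478 in cholangiocytes (26 genes).

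The gene past the limit was Gstm5, a mu-class enzyme at chr3:107895821-107898686. In cholangiocytes it had 12 counts (28.1 CPM, 14.5 to 49.0) in the AEG-1ΔMAC-labelled library and 49 counts (34.3 CPM, 25.4 to 45.4) in the AEG-1fl/fl-labelled library. Hepatocytes had 5.50 and 7.93 CPM, so that the class was 5.10 and 4.33 times hepatocytes. Stellate cells had 6 and 29 counts (6.61 and 15.5 CPM), endothelial cells 1.36 and 4.03 CPM and macrophages 2.68 and 3.22 CPM. No 50-base stretch of Gstm5 is shared with another member.

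Sult2b1, a cholesterol sulfotransferase, was under the count minimum and is named here after its values were seen. It had 8 counts (18.7 CPM, 8.08 to 36.9) and 27 counts (18.9 CPM, 12.5 to 27.5) in cholangiocytes, against 5 and 8 counts in all hepatocytes (0.0790 and 0.114 CPM). Endothelial cells, stellate cells and macrophages had no count in either library. Cholangiocytes were few, with 29 and 92 cells, so each of these sums rests on little material.

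Several enzymes stood near their hepatocyte level in another class, above the hepatocyte markers there, and were chosen for description after their values were seen. Lying above the markers was not particular to them. It held for 25 and 28 of 30 enzymes in endothelial cells and 27 and 26 of 29 in stellate cells. In macrophages it held for 24 and 27 of 28, and in cholangiocytes for 18 and 24 of 26. The markers also served to assign the cells, so their ratio is no independent baseline. Gsto1 had 138 counts (92.5 CPM) and 382 counts (94.5 CPM) in macrophages, 1.01 and 1.20 times its level in hepatocytes. It was the only one of the 28 enzymes with at least 10 counts in macrophages of both libraries that lay above hepatocytes. Gstm2 in stellate cells had 348 and 232 CPM, 1.10 and 1.08 times hepatocytes. Sult1a1 in endothelial cells had 239 and 219 CPM, 0.979 and 0.889 times hepatocytes, and Gstt3 in cholangiocytes 65.5 and 54.7 CPM, 0.998 and 1.57 times. Sult1e1 had 13 counts in endothelial cells (8.85 CPM) and 14 in macrophages (9.39 CPM) of the AEG-1ΔMAC-labelled library, beside 8.12 and 5.35 CPM that its hepatocyte level times the hepatocyte marker ratio gives. In the AEG-1fl/fl-labelled library, endothelial cells and macrophages had no Sult1e1 count.

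**Figure D4:**
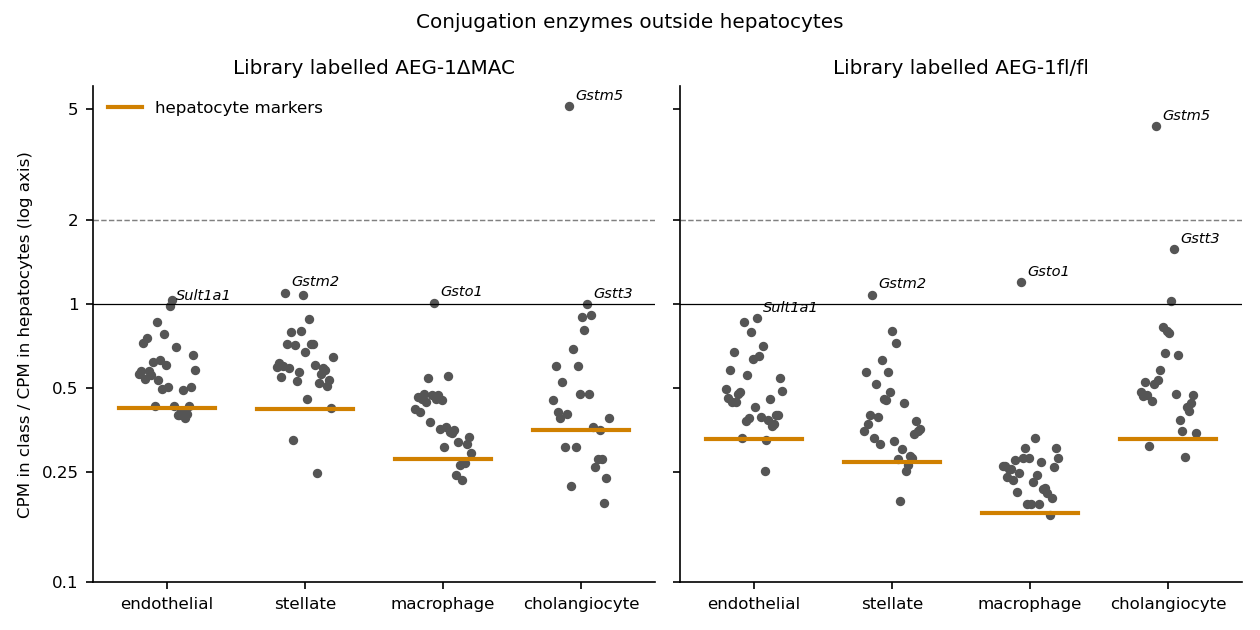
Ratio of CPM in a nonparenchymal class to CPM in hepatocytes of the same library (log axis), for enzymes with at least 10 counts in the class in both libraries, 1 point per gene, with the ratio of the hepatocyte markers as an orange bar and a dashed line at 2-fold. Most points lie between the bar and 1, and only Gstm5 in cholangiocytes (5.10 and 4.33) lies above the dashed line in both libraries.

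Lymphoid and other myeloid classes were small, with 7 to 105 cells, and gave at least 50 summed counts for 20 enzymes in T and NK cells, 18 in B cells, 6 in dendritic cells and 4 in neutrophils. Their hepatocyte marker ratio was between 25.3% and 48.8%, and no comparison was made for them.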

How the data were processed

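Raw counts, 1 table of genes by cells for each library, were deposited by the authors from 10x Genomics fixed RNA profiling of HF/HSD-fed mouse liver, made with Cell Ranger (7.1.0 in the submitters' processing notes) on the mm10 reference and without normalization. How barcodes were called was not given in the sources used here. The genes described, the gene lists and the naming rule were chosen with earlier results of these data known.

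Cells under 100 genes or above 10% mitochondrial counts were left out (10 and 27 cells). A cell took a nonparenchymal class when at least 3 of its markers gave at least 5 counts, at least 4 times their share among all kept cells and 2 times the ratio of any other class. Hepatocytes were the remaining cells with at least 5000 counts and hepatocyte markers at 50% or more of the median share. Cells with nonparenchymal markers whose hepatocyte markers reached 75% of the hepatocyte median (282 and 234 cells), with mixed markers (62 and 79), with hepatocyte markers but under 5000 counts (187 and 329) or with neither (177 and 130) were set aside; no doublet caller was run. These limits were set after the data had been seen. Zones are equal parts of hepatocytes by the mean z-score of log-normalized pericentral minus periportal markers.

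Counts were summed per library and class and divided by the class total (CPM), with Poisson 95% intervals. Log2 ratios have Clopper-Pearson intervals from both counts given their sum. These were tested on simulated independent Poisson counts, the model that the intervals assume. The simulation held no clustering of counts in cells, so it is no check of the intervals under such clustering. A count of 0 was taken to allow 3 counts, and a call needed 50 summed counts and 2-fold. Named enzymes are the 6 highest and 6 lowest by library ratio and by mean zone ratio among those with at least 200 hepatocyte counts over both libraries, those called in a nonparenchymal class, Sult1e1 and Sult1d1. Sult2a7, Sult2b1, Gsto1, Sult1a1 and the remaining members with values were added after their values were seen.

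Alternatives were median-centred ratios, means over cells, stricter cell filters (500 genes, 5% mitochondrial), no top-depth hepatocytes, other count minimums, a 1.5-fold limit, single zones, the outermost of 5 zones, other zone markers and classes from clustering without the enzymes (Seurat 5.3.0, R 4.3.3, 15 clusters at resolution 0.5). Python 3.11.15, NumPy 2.4.6, SciPy 1.17.1, pandas 2.3.3 and matplotlib 3.10.9 were used. Positions and the 50-base stretches of coding transcripts are from GENCODE vM21 (GRCm38), promoters from RefSeq (GRCm38.p6).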

Additional observations from a re-analysis of the deposited data

Results flagged for a closer look

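For 7 enzymes the ratio between the libraries had opposite signs in the pericentral and the periportal zone, and for 2 the gradient along the lobule had opposite signs in the libraries. Each counting interval lay on its own side of 0, but the difference was not tested, since there is 1 library per genotype, and all values are under 0.5 in size. No share over all genes is given for these counts, so whether they are unusual for genes of like depth is not known. Higher in the AEG-1ΔMAC-labelled library on the periportal side and lower on the pericentral side were Ugt1a9, with log2 ratios of 0.39 periportal and -0.20 pericentral, Gstm4 (0.32 and -0.0859), Gsta4 (0.0963 and -0.24), Gstp1 (0.0760 and -0.17) and Gstm1 (0.0671 and -0.16). The reverse was seen for Sult2a8, at -0.19 periportal and 0.12 pericentral, and for Sult1a1, at -0.18 and 0.21. The pericentral over periportal log2 ratio of Sult1a1 was 0.30 in the AEG-1ΔMAC-labelled and -0.0918 in the AEG-1fl/fl-labelled library, and that of Gstz1, the enzyme of tyrosine breakdown that isomerizes maleylacetoacetate, was 0.0883 and -0.0516.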

How the results depend on the processing

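Sult1e1 stayed past 2-fold under all 10 alternatives for the library comparison, with a log2 ratio from 4.55 (pericentral zone) to 4.87 (Seurat clusters). The other count minimums and the 1.5-fold limit leave its ratio at 4.73 by design, so they were no check on it. Median-centring shifts all genes by the same amount. The count of 2 enzymes higher in the AEG-1ΔMAC-labelled library fell to 1 with means over cells, with the stricter cell filter, without the 10% of hepatocytes with most counts, with a minimum of 200 counts and in the periportal zone, each time because Sult2a7 was no longer called, and rose to 5 with the 1.5-fold limit and to 3 in the pericentral zone, where Sult5a1 was added (1.77). The count of 0 lower rose to 2 with no count minimum (Ugt2a1 and Sult4a1), to 2 with the 1.5-fold limit (Ugt1a8 and Ugt2b38), to 1 in the pericentral zone (Ugt1a8) and to 1 in the periportal zone (Ugt2b37). The median log2 ratio of the enzymes, 0.10, was 0.0294 with no count minimum and 0.0255 in the pericentral zone. Pericentral enzymes rose from 3 to 9 with the 1.5-fold limit, and periportal enzymes fell from 4 to 2 with a minimum of 200 counts, without Ugt1a8 and Ugt2b38. A looser limit can only add calls, and the share of all genes past 1.5-fold is not given here. With hepatocytes of the middle 50% of total counts, periportal enzymes fell to 3, without Ugt2b38, and pericentral enzymes rose to 4 with Gstm6, as they did with the outermost of 5 zones. Gstm2, Gstm3, Sult2a8, Ugt1a9 and Sult5a1 kept their zone under all 7 alternatives for zonation. Of the 64 values computed for counts and medians, 50 kept their side or stayed within 1.5 times, and none reversed. Most of the 64 are counts of called enzymes, which cannot be negative, so only the medians could have reversed. The causes were not tested. Depth limits Sult2a7, Ugt2b38, Sult2b1, Slc7a11, Dpep1 and every value in the small classes. A single library per genotype limits all comparisons between libraries. No paired analysis was possible because each genotype has 1 library.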
